A study of Arabidopsis thaliana with 18 samples.

Results

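GH3.3, WES1 and GH3.9 belong to the GH3 family of Arabidopsis thaliana and are set here beside IAA29, a gene of the Aux/IAA family. These 4 genes were chosen by name, with earlier results of these data known. They come from the 13350 genes to which the annotation used here gave a probe set of their own, and each had 1 probe set. GH3 enzymes join amino acids to acyl acids. GH3.3 and WES1, also called GH3.5, attach amino acids to the auxin indole-3-acetic acid and so take it out of use or mark it for breakdown, and WES1 also acts on salicylic acid in other studies. Aux/IAA proteins such as IAA29 bind auxin response factors and hold back auxin-responsive transcription until auxin triggers their degradation. Many GH3 and Aux/IAA genes are themselves induced by auxin, so both families are used as readouts of auxin response, and salicylic acid is known for holding back auxin signalling in defence.

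The values came from 18 Affymetrix ATH1 arrays of biotin-labelled total RNA from the accession Tsu-1. The 9 SA arrays were from plants that received 0.3 mM salicylic acid (SA) in 0.02% silwet, and the 9 control arrays from plants that received 0.02% silwet, a surfactant, without SA. By the numbers in their titles the arrays formed 3 triplets per treatment, each with replicates 1, 2 and 3. The first triplet held arrays 91 to 93 (silwet) and 100 to 102 (SA), the second 94 to 96 and 103 to 105, and the third 97 to 99 and 106 to 108. The labels did not say what separated the triplets and gave no tissue, age or time, and nothing in them placed the arrays on separate plants. The p-values therefore reflect only how far these arrays scatter, and part of that scatter may be technical.

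The leaf markers RCA, LHCB4.1, LHCB4.2 and PSAE-1 had mean signals between the 98.7th and 99.9th percentiles of all probe sets, and no flower marker had a named probe set. PYK10, a root marker, was also well above the dim range, with group means of 7.06 to 8.36 on the log2 scale. Array 100 (SA, first triplet, replicate 1) stood apart with the lowest median signal, 26.01 against up to 35.9, and the lowest mean correlation with the other arrays, 0.899. Array 97 (silwet replicate 1 of the third triplet) was next on both counts, at 27.39 and 0.915. Array 100 also had the highest log2 ratio of 3' to 5' signal for GAPDH (0.86), a sign of RNA quality, and for actin the highest ratio was that of array 91 (3.42, silwet replicate 1 of the first triplet), followed by array 100, against a median of 2.015. Array 91 held the highest silwet values of GH3.3 and WES1, and the part of RNA quality in the results was not tested. In bulk RNA, fewer cells of a type and less RNA per cell cannot be told apart.

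GH3.3 had the largest average SA difference of the 4 genes. On the log2 scale of the deposited signal its silwet arrays read 7.65, 7.03 and 7.35 in the first triplet, 6.09, 6.54 and 6.55 in the second, and 6.29, 5.67 and 4.86 in the third, for replicates 1, 2 and 3. Its SA arrays read 7.77, 10.32 and 9.76 in the first triplet, 7.47, 6.98 and 7.66 in the second, and 5.74, 7.29 and 6.89 in the third. Every SA array lay above every silwet array in the first triplet and in the second, while in the third SA replicate 1 fell among the silwet arrays. Paired by replicate number, SA was the higher in 8 of 9 pairs, with a median difference of 1.38 and a range of -0.55 to 3.29. Of all 15922 probe sets tested, 9.25% had SA above silwet without overlap in the first triplet and 4.13% in the second.

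**Figure D1:**
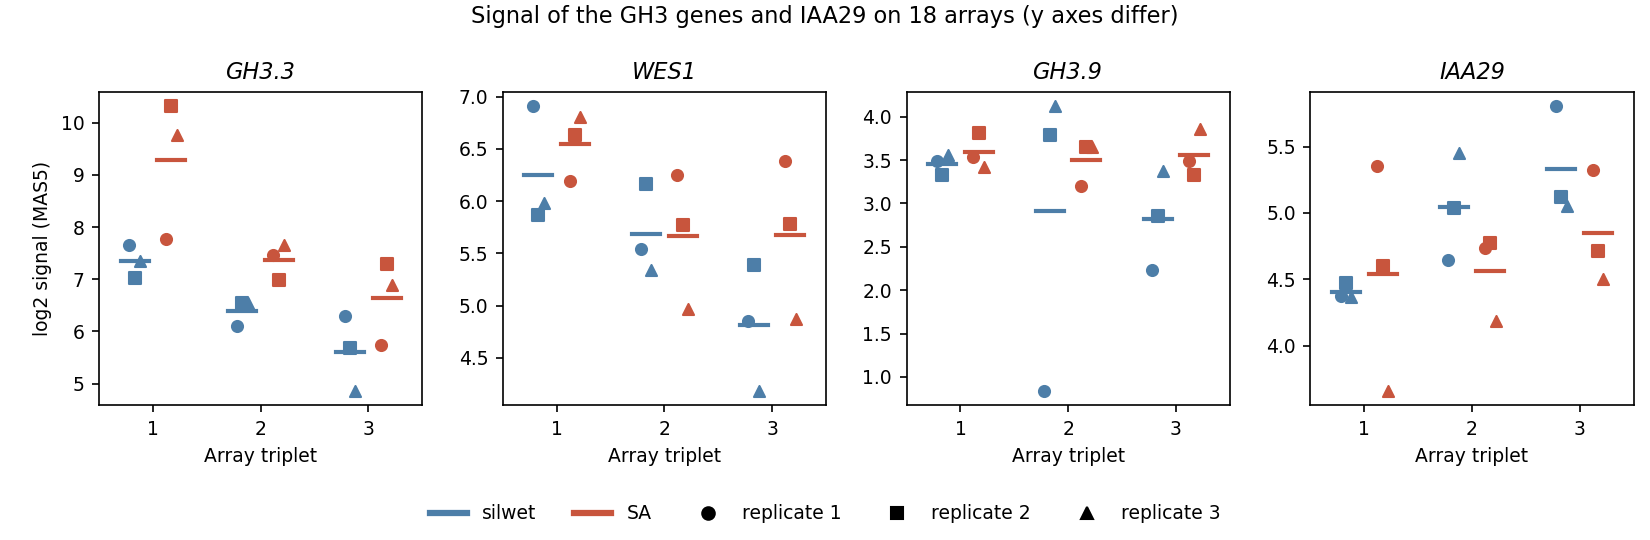
log2 signal (MAS5) of GH3.3, WES1, GH3.9 and IAA29 on each of 18 arrays, by array triplet, with silwet in blue, SA in red, replicates 1, 2 and 3 as circles, squares and triangles, and bars at the mean of 3 arrays; the y axes differ. GH3.3 was lower in later triplets under both treatments, and its SA means (9.29, 7.37 and 6.64) lay above its silwet means (7.34, 6.39 and 5.61).

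The test of SA against silwet within a triplet was limma over all 15922 probe sets, with Benjamini-Hochberg adjustment and a threshold of 0.05. The replicate number was left out of the model unless stated. In the first triplet GH3.3 differed by 1.94 (SE 0.53, 95% interval 0.83 to 3.06), a 3.84-fold higher signal with SA. Its adjusted p in limma was 0.0543, just outside the threshold, and 0.0344 with the replicate number as a block, as same-numbered arrays deviated together. In this triplet 3.24% of probe sets were called, and 8.81% with the block. Array 100 held the lowest SA value of GH3.3 there. Without that array the difference was 2.70 with an adjusted p of 0.00362 in limma. Leaving out array 97 or array 106, which are not in this comparison but enter the shared spread, gave 0.0455 and 0.0479. Without all arrays of replicate 2 the difference was 1.27, with an adjusted p of 0.48 in limma. Of 21 ways to leave out 1 array or 1 replicate number, 4 put GH3.3 past the threshold, and with the groups of this triplet fitted alone its adjusted p was 0.248 in limma.

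In the second and in the third triplet the GH3.3 differences were 0.98 (interval -0.14 to 2.09) and 1.03 (interval -0.08 to 2.15), with adjusted p of 1 and 0.615 in limma. No probe set was called there, and 367 and 1112 of them passed an unadjusted p of 0.05 in limma (2.3% and 6.98%). Averaged over the triplets, GH3.3 was 1.32 higher with SA (SE 0.31, interval 0.67 to 1.96), a 2.49-fold higher signal. Its unadjusted p in limma was 0.000487 and its adjusted p 0.423. No probe set was called in this average, 532 (3.34%) passed the unadjusted p, and with the replicate block 20 were called, where the adjusted p of GH3.3 was 0.175. Counting GH3.3 itself, 9 of 15922 probe sets (0.0565%) had an average difference at least as high as that of GH3.3. Of 21 ways to leave out 1 array or 1 replicate number, 2 put this average past the threshold. Without array 100 it was 1.57 with an adjusted p of 0.0449 in limma, and without all arrays of replicate 1 it was 1.82 with an adjusted p of 0.00872 in limma. The test of whether the SA difference itself varied between triplets gave GH3.3 an adjusted p of 0.661 in limma, with 1% of probe sets called.

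No SA difference of WES1 passed the test. Its silwet arrays read 6.91, 5.86 and 5.98 in the first triplet, 5.54, 6.16 and 5.34 in the second, and 4.85, 5.39 and 4.18 in the third. Its SA arrays read 6.19, 6.63 and 6.81, then 6.25, 5.77 and 4.97, then 6.38, 5.78 and 4.87. The groups overlapped in all 3 triplets, and SA was the higher in 6 of 9 same-numbered pairs. The differences were 0.29 in the first triplet, -0.02 in the second and 0.87 in the third, where the interval ran from -0.03 to 1.76 and the adjusted p was 0.615 in limma. In that triplet SA was the higher in all 3 same-numbered pairs, by 1.53, 0.39 and 0.69, and with the replicate block the SE was 0.355 and the adjusted p 0.344 in limma. Its value there ran from 0.515 without array 106 to 1.27 without array 108. With array weights it was 1.39 and passed (adjusted p 0.00428 in limma), and 5380 of 15922 probe sets were called. Array 99, with the lowest silwet value of WES1, then had a weight of 3.37, and arrays 97 and 98 had 0.315 and 0.311. The average over triplets was 0.38 (interval -0.14 to 0.90, adjusted p 0.999 in limma), so a difference of up to 1.86-fold higher lay within the interval.

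GH3.9 was dim, with a mean log2 signal of 3.31 over 18 arrays against a filter level of 3.21, and low signals of this kind scatter widely. Its silwet arrays read 3.48, 3.33 and 3.56 in the first triplet, 0.84, 3.78 and 4.12 in the second, and 2.24, 2.86 and 3.37 in the third. Its SA arrays kept to a narrower range, 3.53, 3.81 and 3.42, then 3.199, 3.66 and 3.65, then 3.49, 3.33 and 3.86. The groups overlapped in every triplet, and 6 of 9 same-numbered pairs had SA higher. The differences were 0.13, 0.58 and 0.74 in the 3 triplets, and their average was 0.48 (interval -0.25 to 1.21, adjusted p 0.999 in limma). The value of 0.58 rested on array 94 (silwet, second triplet, replicate 1), and without that array it was -0.45. In the third triplet SA was the higher in all 3 same-numbered pairs, by 1.25, 0.475 and 0.481, and without array 97 the difference was 0.443. The size of these differences depended on how low signals were treated, on array weights and on which arrays were kept. With 16 added to the signal before log2 the second triplet gave 0.0715 and the average 0.128, and with array weights the third triplet gave 0.188. Without all arrays of replicate 1 the average was 0.117.

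IAA29, the comparator, read 4.37, 4.47 and 4.37 on the silwet arrays of the first triplet, 4.65, 5.04 and 5.45 in the second, and 5.81, 5.12 and 5.05 in the third. Its SA arrays read 5.36, 4.60 and 3.66, then 4.73, 4.77 and 4.18, then 5.33, 4.71 and 4.50. The treatments overlapped in all 3 triplets, and SA was the higher in 3 of 9 same-numbered pairs. The SA differences were 0.13, -0.48 and -0.48, and their average was -0.28 (interval -0.73 to 0.17, adjusted p 0.999 in limma). Without array 100, or without every array of replicate 1, the first-triplet difference was below 0, at -0.29 in the latter case. In the third triplet SA was the lower in all 3 same-numbered pairs, by differences of -0.48, -0.41 and -0.55, and without array 97 the difference was -0.24.

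**Figure D2:**
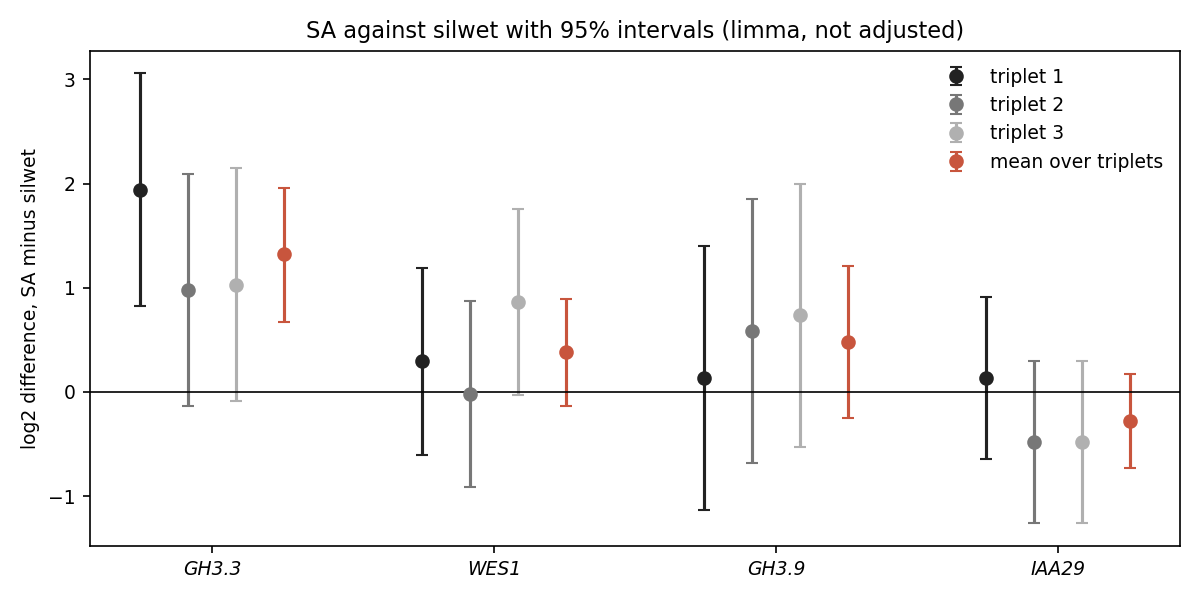
log2 difference of SA minus silwet for GH3.3, WES1, GH3.9 and IAA29 in each array triplet (black to grey) and averaged over triplets (red), with 95% intervals from limma that are not adjusted for the number of probe sets. The GH3.3 interval lay above 0 in the first triplet (0.83 to 3.06) and in the average (0.67 to 1.96), and the intervals of WES1, GH3.9 and IAA29 included 0 throughout.

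Whether a GH3 gene responded to SA otherwise than IAA29 was tested on the difference of their SA differences, by an exact two-sided permutation of the treatment within triplets (8000 assignments, smallest possible p 0.00025). The genes were chosen with earlier results of these data known, which the adjustment does not cover, so these p-values are not independent support. For GH3.3 the SA difference exceeded that of IAA29 by 1.59. The exact p, which left the pairing by replicate number out, was 0.005, and 0.015 after adjustment over the 3 GH3 genes. The excess was 1.81, 1.46 and 1.51 in the 3 triplets. Permuted within same-numbered pairs, the adjusted exact p was 0.0586, outside the threshold. It also missed the threshold without all arrays of replicate 2 (1.41, adjusted exact p 0.194) or of replicate 3 (1.04, adjusted exact p 0.333). For WES1 the excess was 0.66 and for GH3.9 0.76, with an adjusted exact p of 0.0745 each. With 16 added before log2 the excess of GH3.9 was 0.30. Both passed without array 100 (0.85 and 0.91, adjusted exact p 0.0142) and without array 95 (0.74 and 0.91, adjusted exact p 0.0475), and without all arrays of replicate 1 (0.83 and 0.63, adjusted exact p 0.0463 and 0.0139).

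GH3.3 also differed between triplets of one treatment. Under SA, GH3.3 fell by 1.91 from the first triplet to the second (SE 0.53, adjusted p 0.0173 in limma) and by 2.65 from the first to the third (interval -3.76 to -1.53, adjusted p 0.00182 in limma), which left 0.16 of the first-triplet signal. These contrasts called many probe sets, 19.4% and 22.6% in all, and 8.8% and 9.64% as lower. The fall to the second triplet did not pass without array 101, 102 or 104 (adjusted p 0.0796, 0.0752 and 0.0806 in limma), nor without all arrays of replicate 2 (-1.20, adjusted p 0.311 in limma) or of replicate 3 (-1.82, adjusted p 0.188 in limma). Without every array of replicate 3 the difference of the third triplet from the first was -2.54, with an adjusted p of 0.0665 in limma. Under silwet GH3.3 was lower in the third triplet than in the first by a difference of -1.74 (adjusted p 0.0632 in limma, and 0.0436 with the replicate block), where 5.77% of probe sets were called, and 12.7% with the block. Without array 100 or array 101, which enter only the shared spread, that adjusted p was 0.00819 and 0.0418 in limma.

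WES1 went the same way under silwet, with a difference of -1.44 from the first to the third triplet (SE 0.42, adjusted p 0.0555 in limma, and 0.0178 with the block). It passed the threshold without array 98, 100, 106 or 108 (adjusted p 0.0263, 0.0357, 0.0481 and 0.0438 in limma). Under SA the same contrast of WES1 was -0.87 (adjusted p 0.158 in limma), and it passed without all arrays of replicate 1 (-1.39, adjusted p 0.0456 in limma) and with array weights (-1.01, adjusted p 0.0281 in limma). IAA29 went the other way under silwet, 0.92 higher in the third triplet than in the first (adjusted p 0.151 in limma), and 0.31 higher under SA (adjusted p 0.596 in limma). With array weights the value under SA was 0.74 and passed (adjusted p 0.0349 in limma). In this weighted contrast, where WES1 also passed, 6917 of 15922 probe sets were called. Arrays 100, 101 and 102 had weights of 0.133, 0.875 and 1.87. Array 102 held the lowest SA value of IAA29 in the first triplet (3.66). Without weights GH3.9 differed by -0.63 under silwet and by -0.03 under SA from the first to the third triplet. PYK10, the root marker, was also lower in later triplets, with silwet means of 8.36, 7.35 and 7.09 and SA means of 7.88, 7.77 and 7.06, and its part in the differences between triplets was not tested.

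Ordered by group mean, GH3.3 was highest in SA of the first triplet (9.29 ± 1.34, SD, n = 3), and these arrays did not overlap those of the next group, SA of the second triplet (7.37 ± 0.35). Then came silwet of the first triplet (7.34 ± 0.31), SA of the third (6.64 ± 0.81), silwet of the second (6.39 ± 0.26) and silwet of the third (5.61 ± 0.72), each overlapping its neighbour. SA of the second triplet and silwet of the first thus had nearly the same GH3.3 signal. Of all 15922 probe sets tested, 12.7% were lower without overlap in SA of the second triplet than in SA of the first, so the gap in GH3.3 was a common one. For WES1 the order ran from SA of the first triplet (6.54 ± 0.32) to silwet of the third (4.81 ± 0.61), and for GH3.9 from SA of the first (3.59 ± 0.20) to silwet of the third (2.82 ± 0.57). IAA29 had the opposite end on top, from silwet of the third triplet (5.33 ± 0.42) to silwet of the first (4.40 ± 0.06). In WES1, GH3.9 and IAA29 every group overlapped its neighbour in the order.

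Of 19 genes listed as the GH3 family from general knowledge, 11 had a named probe set and 5 passed the filter on dim signals. Besides the 3 described above these were GH3.17, an enzyme that conjugates auxin to glutamate, and the locus AT5G13350. GH3.17 was steady, between 3.59 and 4.65 on all 18 arrays, and its average SA difference was 0.09 (interval -0.30 to 0.47). AT5G13350 differed by -0.35 (SE 0.47). GH3.1 and the loci AT1G23160, AT5G51470, AT5G13380, AT1G48670 and AT1G48690 were below the filter and were not tested. AT5G51470 missed it narrowly, with a mean of 3.207 against 3.208, and GH3.9 lay just above. In the average over triplets, 4 of the 5 tested GH3 genes were higher with SA and 1 lower, beside 7086 higher and 8836 lower of all 15922 probe sets. None of the 5 was called, and only the interval of GH3.3 left out 0. Their median difference was 0.38, the value of WES1, against -0.02 over all tested probe sets. GH3.3, WES1 and GH3.9 were chosen with earlier results of these data known, so this count and median are not independent support. GH3.17 and AT5G13350, outside that choice, differed by 0.09 and -0.35.

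Of 126 auxin genes listed in all, 24 had a named probe set and 10 were tested, 6 of them besides the 4 genes above. None of the 6 was called in SA against silwet, averaged or within a triplet, where the share called was 3.24% in the first triplet and 0 in the others. In the average 1 was higher and 5 were lower, with a median of -0.10, beside 7086 higher and 8836 lower of all tested probe sets. IAA18, an Aux/IAA gene, differed by -0.12 (SE 0.13). YUC2, a flavin monooxygenase of auxin synthesis, differed by -0.11 (SE 0.16). UGT74D1, a glycosyltransferase that acts on auxin, differed by -0.07 (SE 0.22), and the locus AT1G14130 by -0.09 (SE 0.15). The lists of SAUR genes, auxin response factors, receptors and transporters had no named probe set and are not analysed here. As 8730 probe sets on the array were not named, such genes need not be missing from it.

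**Figure D3:**
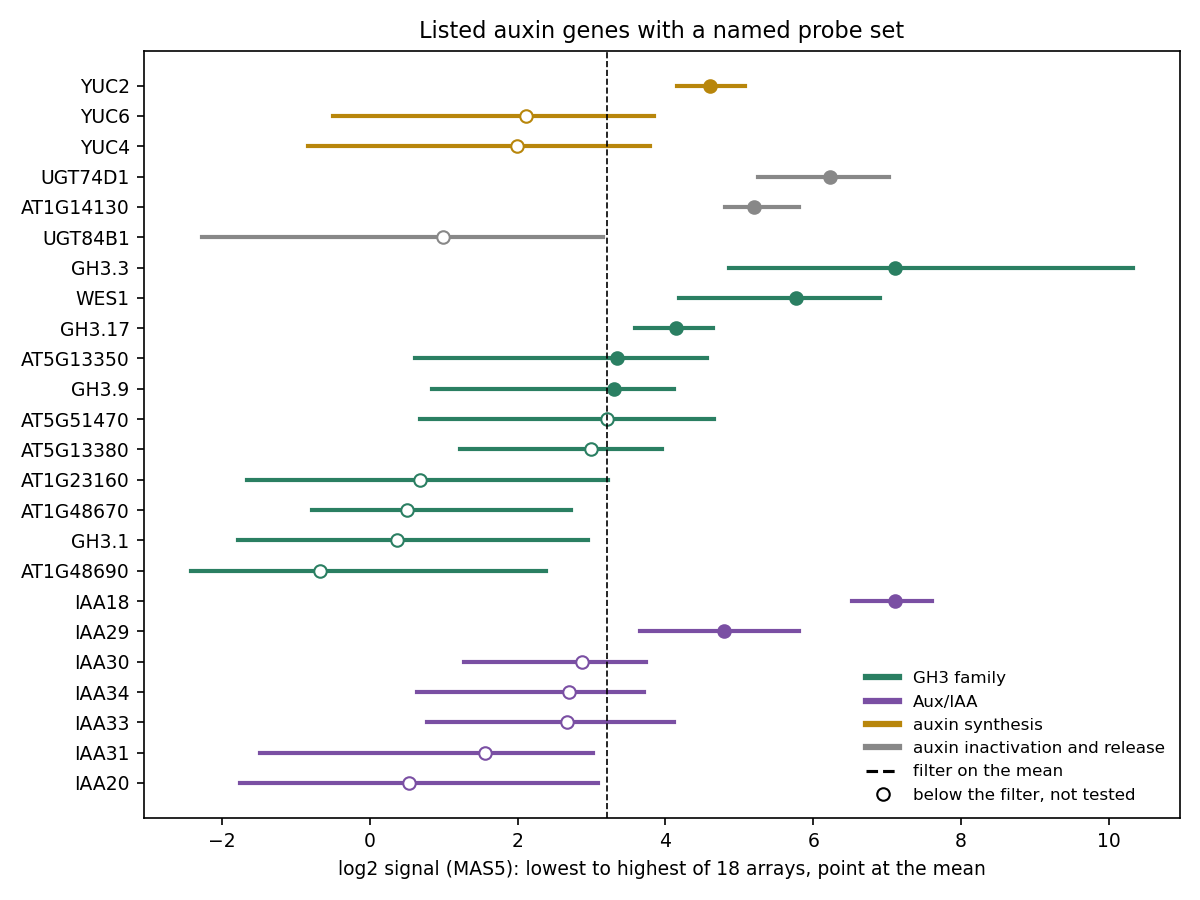
log2 signal (MAS5) of the 24 listed auxin genes with a named probe set, from the lowest to the highest of 18 arrays with a point at the mean, filled where the gene was tested and open where its mean lay below the filter level of 3.208 (dashed). Signals of different probe sets are not comparable in level; the range of GH3.3, 4.86 to 10.32, was wider than that of GH3.17, 3.59 to 4.65.

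Of 9 listed genes of the SA response, 3 had a named probe set and were tested. They were listed with earlier results of these data known, so their values are not independent support. UGT76B1, a glycosyltransferase of defence signalling, rose by 4.21 in the first triplet (SE 0.90, 18.5-fold, adjusted p 0.0179 in limma). GRX480, a glutaredoxin induced by SA, rose by 1.5 (adjusted p 0.0191 in limma), and WRKY53, a transcription factor, rose by 1.37 (adjusted p 0.0427 in limma). Of all probe sets tested, 3.24% were called in the first triplet. In the second the SA differences of UGT76B1, GRX480 and WRKY53 were 1.82, -0.03 and 0.61, and in the third -0.10, -1.14 and -0.56, none of them called. The SA differences of GH3.3 in the same triplets were 0.98 and 1.03. UGT76B1 averaged 1.98 over the triplets (adjusted p 0.649 in limma, and 0.0238 with the replicate block, where 0.126% of probe sets were called).

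Over the 18 arrays GH3.3 and WES1 correlated at 0.638 (Pearson), and at 0.14 once each group's mean was taken off. GH3.3 and IAA29 correlated at -0.585, and at -0.408 within groups. The other pairs of the 4 genes lay between -0.349 and 0.307. Among 8742 named probe sets, those most like GH3.3 over the 18 arrays were AT5G03610, AT4G02940, AT4G01870, AT5G16230 and AT3G28580, at 0.859 to 0.847. Their correlations within groups were lower, 0.272 to 0.623, so much of the likeness lay in the group means. Their differences from the first to the third triplet under SA were -1.09 to -2.80, and their SA differences in the first triplet 0.785 to 1.35. Likeness to GH3.3 on the same arrays chose these genes and largely sets such values, which are given as a description. The genes most like WES1 were AT3G15180, AT3G57420 and AT1G25390 (0.822 to 0.806), and those most like GH3.9 were AT5G28310, AT3G08670 and AT1G63820 (0.823 to 0.737). The correlations describe these arrays, which share a platform and a scaling, and carry no test.

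**Figure D4:**
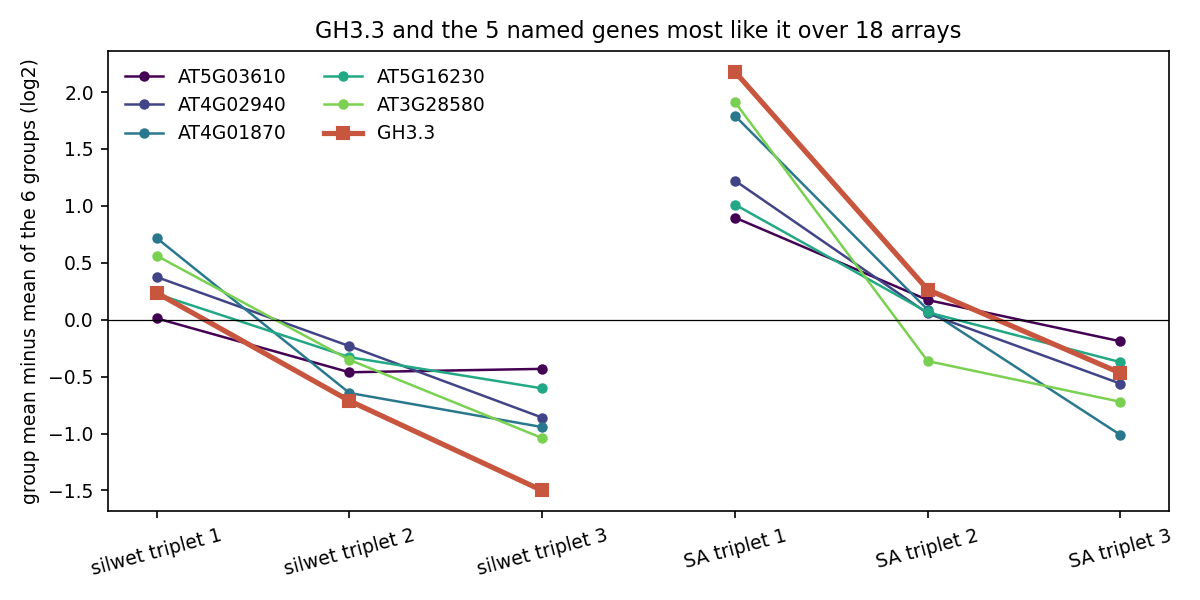
Group mean minus the mean of the 6 groups, on the log2 scale, for GH3.3 (red squares) and the 5 named genes with the highest Pearson correlation with it over 18 arrays, by treatment and array triplet; each point is a mean of 3 arrays. All 6 genes were highest in SA of the first triplet and lower in the second triplet and in the third.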

How the data were processed

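The authors deposited one intensity per probe set and array on a linear scale, and the submitters' processing notes name MAS5. The 2% trimmed mean was 100.01 on every array, so values were used as deposited and taken as log2. Probe sets were named from the platform annotation and the RefSeq table: of 22746 probe sets other than 64 controls, 13513 had 1 gene, 503 several and 8730 were not named. The 30% with the lowest mean log2 signal were left out, which left 15922.

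A model of 6 groups was fitted with limma 3.58.1 in R 4.3.3, with a mean-variance trend and Benjamini-Hochberg adjustment. The SE of a difference comes from this model.

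Replicate numbers of the labels were checked for pairing. Within a triplet, same-numbered SA and silwet arrays deviated together (9 pairs, r 0.216 to 0.481). Differently numbered ones had r of -0.377 to 0.113 (18 pairs, median -0.204). Deviations from a group mean sum to 0, so these lower values follow in part from the same-numbered ones and are not separate support. The numbers were therefore taken to pair the arrays, though no label says what a number shares. The main limma tests and the main permutation did not use this pairing. The block and the permutation within same-numbered pairs did, and were run as alternatives.

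The genes and lists were chosen with earlier results of these data known, and the family lists from general knowledge. Named are the 4 genes, all GH3 genes with a named probe set, up to 4 tested genes of each other auxin list, the SA response genes, and the 5 or 3 genes most like a GH3 gene. The number of arrays limits the precision, and no detection calls were used.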

Additional observations from a re-analysis of the deposited data

Results flagged for a closer look

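GRX480, the glutaredoxin gene of the SA response, differed between triplets in its SA difference, by the test of the interaction of treatment and triplet (adjusted p 0.0261 in limma, and 0.00578 with the replicate block). Its SA minus silwet differences on the log2 scale were 1.5 in the first triplet, -0.03 in the second and -1.14 in the third, with 3 arrays in each group. Of all 15922 probe sets, 1% were called by this test in limma, and 5.88% with the block. WRKY53 and UGT76B1 did not pass it without the block (adjusted p 0.124 and 0.187 in limma). Both passed with the block (adjusted p 0.0165 and 0.0171 in limma). GH3.3, WES1, GH3.9 and IAA29 did not pass the same test, with adjusted p of 0.661, 0.645, 0.887 and 0.687 in limma without the block.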

How the results depend on the processing

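The limits are the 3 arrays per group, an unnamed difference between the triplets, the wide scatter of dim probe sets such as GH3.9, and array 100. With array weights (0.133 for array 100 to 5.12 for array 95) the probe sets called in SA against silwet numbered 2045, 19 and 5380 in the 3 triplets and 257 in the average. Weighted counts were 2387 and 5212 for the second against the first triplet (silwet, then SA), 6650 and 21 for the third against the second, 5002 and 6917 for the third against the first, and 5586 for the interaction. With the replicate block they were 1402 in the first triplet, 20 in the average, 1191 for silwet of the second against the first triplet, 11 and 2 for the third against the second, 2027 for silwet of the third against the first, and 936 for the interaction. The block changed no call of the 4 genes beyond those given in the report. Permuted within same-numbered pairs, GH3.3 against IAA29 at 1.59 fell outside the threshold (adjusted exact p 0.0586). Fitted as 2 groups alone, the counts were 5 in the first triplet, 984 and 1288 for the second against the first, and 435 and 1924 for the third against the first. Without arrays 97 and 100, a choice made after seeing the data, they were 1227 in the first triplet, 4 in the average, 1064 for silwet of the second against the first, 4 and 1 for the third against the second and 370 for the interaction, and WES1 and GH3.9 passed against IAA29 at 0.78 and 0.73 (adjusted exact p 0.026). In the average, a floor at the 20th percentile or 16 added gave 4 calls. For silwet of the third against the second triplet, no filter gave 2 calls, and the stricter filter, the floor and quantile normalization gave 1 each. The cause of these shifts was not tested.

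Adjusted p-values of limma stand in brackets here, after the difference where it moved. GH3.3 in the first triplet also passed with the lowest 50% left out (0.0454), 16 added (0.0352), array weights (2.52, 0.00114) and without arrays 97 and 100 (2.70, 0.002). Counting the replicate block, 5 of 10 alternatives passed, and in the other 5 the adjusted p was up to 0.248. Array weights gave GH3.3 an average of 1.79 (0.000651), and leaving out arrays 97 and 100 gave 1.68 (0.0146). In the third triplet, weights put GH3.3 at 1.99 (0.00116) and WES1 at 1.39 (0.00428). Array 99, with the lowest silwet value of both genes, had a weight of 3.37 there. Both differences were past the threshold, as were those of 5380 of all 15922 probe sets. Weights also brought past it silwet of the third against the first triplet for GH3.3 (-2.29, 0.000334) and WES1 (-1.91, 0.00143), silwet of the third against the second for GH3.3 (-1.44, 0.00167) and WES1 (-1.63, 0.00086), and SA of the second against the first for WES1 (-1.13, 0.0394). Fitted as 2 groups alone, the fall of GH3.3 under SA to the second triplet missed it (-1.91, 0.0893). Under silwet the same fit put GH3.3 past it for the second against the first triplet (-0.95, 0.0326) and the third against the first (0.0362). Silwet of the third against the first triplet also passed for GH3.3 without arrays 97 and 100 (-2.08, 0.0053), and for WES1 with the lowest 50% left out (0.0493). Directions turned for WES1 in the second triplet (0.0383 by quantile normalization) and SA of the third against the second triplet (-0.00783, likewise), for IAA29 in the first triplet (-0.39 with weights, -0.28 without arrays 97 and 100) and SA of the second against the first (-0.0197 with 16 added, -0.20 by quantile normalization), and for GH3.9 in SA of the third against the second triplet (-0.11 with weights) and silwet of the same (0.20 without arrays 97 and 100). None of these was past the threshold.

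Leaving out 1 array, or every array of 1 replicate number, gave 3 to 867 calls in the first triplet (fewest without replicate 2), 0 to 3 in the second, 0 to 1 in the third and 0 to 2 in the average. The ranges were 87 to 829 and 792 to 3740 for the second against the first triplet, 0 to 723 and 0 to 2 for the third against the second, 80 to 2025 and 1360 to 4006 for the third against the first, and 0 to 683 for the interaction. Against IAA29, GH3.3 ranged from 1.04 to 2.33, WES1 from 0.37 to 0.85 and GH3.9 from 0.48 to 0.91. GH3.3 ranged from 1.27 to 2.85 in the first triplet and from 1.05 to 1.82 in the average. SA against silwet changed direction for WES1 in the second triplet (-0.38 to 0.33), for GH3.9 in the first (-0.0447 to 0.22) and second (-0.45 to 1.19), and for IAA29 in the first (-0.29 to 0.57) and in the average (-0.51 to 0.00584). Between triplets GH3.9 changed direction in SA of the second against the first (-0.17 to 0.0606), the third against the first (-0.18 to 0.19) and the third against the second (-0.0927 to 0.25), and in silwet of the second against the first (-1.14 to 0.51) and the third against the second (-1.13 to 0.51). IAA29 did so in SA of the second against the first (-0.42 to 0.43) and the third against the first (-0.13 to 0.72) and in silwet of the third against the second (-0.16 to 0.62), and WES1 in SA of the third against the second (-0.34 to 0.42). With the lowest 50% left out GH3.9 and IAA29 had no value.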
